A study of Mus musculus with 14 samples.

Results

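A set of 220 genomic regions in C2C12 cells carried Sin3B in growing myoblasts, kept a Sin3B peak in differentiated myotubes, and held a Sin3A peak in myotubes but none in myoblasts. They were found by merging all peaks that overlapped by at least 1 bp over 4 peak lists (Sin3A and Sin3B, each in myoblasts and myotubes), which gave 5137 regions in all, and are called joined sites below. The joined sites were thus 4.28% of all regions. C2C12 is a mouse skeletal muscle line of C3H background, which is a cell line model of differentiation rather than muscle tissue. The myoblasts were kept in medium with 10% fetal bovine serum, and the myotubes were made from confluent cultures moved to 2% horse serum and collected apart from undifferentiated cells by a mild trypsin step. Per the labels there were 2 Sin3A and 2 Sin3B immunoprecipitation samples of myoblasts, and 2 Sin3A and 5 Sin3B samples of myotubes. Neither stage carried an engineered allele or an added agent in its label. The antibodies against both proteins bear 1 catalogue number in the labels, with other lots for Sin3A than for Sin3B, so overlap of Sin3A and Sin3B peaks and cross-reaction of the antibodies cannot be told apart.

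Sin3A and Sin3B are paralogous scaffold proteins. Neither binds DNA by sequence. Sequence-specific factors recruit them through their paired amphipathic helix domains, and they carry the histone deacetylases HDAC1 and HDAC2 and further subunits to chromatin, where they are best known for repressing transcription. In muscle cells Sin3 complexes have been linked to the silencing of genes as cells leave the cell cycle and differentiate.

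Within a group the deposited peak files did not differ. Each group therefore gave 1 list (n = 1), and no spread between cultures could be measured. The lists hold positions only, with no height or score, and read depth is unknown. A site without a listed peak may still have been bound, and the muscle identity of the cells was not tested. The joined sites were chosen by the presence or absence of peaks in these 4 lists, so counts and widths of those peaks are given as descriptions with no test. Intervals are 95% exact (Clopper-Pearson) binomial intervals and cover counting error only, and tests with regions as units compare these lists, not cultures.

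Joined sites were 220 of the 1405 regions with Sin3B at both stages (15.7%, 13.8 to 17.7%) and 220 of the 750 regions with Sin3A in myotubes (29.3%, 26.1 to 32.7%). Among regions without Sin3A in myoblasts, a Sin3A myotube peak was listed at 220 of 1220 regions with Sin3B at both stages (18.0%, 15.9 to 20.3%), at 273 of 2226 whose Sin3B was limited to myotubes (12.3%, 10.9 to 13.7%) and at 17 of 897 whose Sin3B was limited to myoblasts (1.90%, 1.11 to 3.02%). Where Sin3B was listed at both stages and Sin3A was already listed in myoblasts, Sin3A was listed in myotubes at 84 of 185 regions (45.4%, 38.1 to 52.9%). These shares follow from the choice of sites and show only how the 4 lists divide.

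Positions in the peak lists come without gene names or a stated genome build. Gene starts were taken from RefSeq's table for GRCm38.p6, whose positions differ from those of the lists over most of the genome. The table was used only along stretches of chromosomes 16, 19 and 8 where the 2 sets of positions appeared to coincide, judged on neighbouring regions that are not joined sites. Starts had to lie near or inside those regions, so a shift smaller than a region might not be seen. In these stretches, 123 of 150 regions that are not joined sites (82.0%) lay within 1 kb of a gene start, against 324 of 4650 (6.97%) elsewhere. This contrast partly follows from how the stretches were chosen. The stretches held 10 joined sites, namely all 7 of chromosome 16, 2 of the 10 of chromosome 19 and 1 of the 14 of chromosome 8. The other 210 were given no gene.

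All 10 of these joined sites lay on a gene start. The background was high, as 83.1% of all 160 regions in the stretches lay within 1 kb of a start. The stretches were chosen by neighbouring regions that lay near starts, which raised this share. A start lay that close at 25 of 29 regions with Sin3B at both stages and no Sin3A (86.2%, 68.3 to 96.1%), at 11 of 11 with both proteins listed only in myotubes (71.5 to 100%), and at 3 of 4 with peaks of all 4 lists (19.4 to 99.4%), against 10 of 10 joined sites (69.2 to 100%). No difference was detected between the joined sites and any of these classes (two-sided Fisher's exact test, adjusted p of 0.834, 1 and 0.834 over 3 comparisons), and with 10 sites the intervals are wide. Regions of these classes also served to choose the stretches, which raised their share at starts and left little room for a difference.

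The genes at these starts are given one by one, with no test of a shared function. In the order of their peak widths, the first was Cmss1, whose product is a homolog of a yeast protein linked to the small ribosomal subunit. Banf1, which encodes the barrier-to-autointegration factor that links chromatin to the nuclear envelope, shared its site with Eif1ad on the opposite strand. Rsl1d1, which encodes a nucleolar protein with a ribosomal L1 domain, shared its site with the noncoding 2610020C07Rik. Ranbp1, which encodes a partner of the Ran GTPase of nuclear transport, shared its site with the tRNA methyltransferase gene Trmt2a. The others were Yars2 (mitochondrial tyrosyl-tRNA synthetase), Rce1 (the protease that trims prenylated CAAX proteins), Abhd10 (a mitochondrial thioesterase), Tomm70a (a receptor of the mitochondrial import machinery), Polq (DNA polymerase theta, which repairs breaks by end joining) and Naxd (the dehydratase that repairs damaged NADH and NADPH). In all, 3 of the 10 sites held starts on both strands, and 12 protein-coding genes were named.

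Distances from a start are given with upstream positions negative. They take the positions of the lists and of GRCm38.p6 as equal to the base, which was not tested. At Cmss1 (chromosome 16, 57606593 to 57607689) the 3 peaks were among the widest of the 10 sites, with 694 bp for Sin3A and, for Sin3B, 868 bp in myoblasts and 1035 bp in myotubes. Their centres lay upstream of the start, at -72.5, -182.5 and -305 bp in the same order. At Banf1 (chromosome 19, 5366226 to 5367502) a Sin3A peak of 326 bp, with its centre at -156.5 bp, lay inside a Sin3B myotube peak of 1277 bp that also covered the start of Eif1ad. The Sin3B centres of Banf1 were at -537.5 bp in myoblasts and -501 bp in myotubes.

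The site at Rsl1d1 spanned 11202768 to 11203802 on chromosome 16 in the positions of the lists. Its Sin3A myotube peak was 469 bp wide, its Sin3B peak 1035 bp in myoblasts and 833 bp in myotubes. All 3 peaks covered the start, with the Sin3A centre at 118 bp and the Sin3B centre at 7 bp in myoblasts and -37 bp in myotubes. At Ranbp1 (chromosome 16, 18248202 to 18249296) the Sin3A peak was 530 bp and the Sin3B peaks 788 bp in myoblasts and 712 bp in myotubes. Here the Sin3B centre was at -208.5 bp in myoblasts, which is 19.5 bp downstream of the start of Trmt2a, and at 136.5 bp in myotubes, next to the Sin3A centre at 126.5 bp. At Yars2 (chromosome 16, 16302775 to 16303693) the Sin3B centre was at 59.5 bp in myoblasts and 350.5 bp in myotubes, with the Sin3A centre at 283.5 bp and the Sin3A peak clear of the start. Tomm70a (chromosome 16, 57121438 to 57122323) showed the opposite order. Its Sin3B centre was at 167.5 bp in myoblasts and -10.5 bp in myotubes, and its Sin3A centre at 343 bp.

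At Rce1 (chromosome 19, 4625244 to 4626221) the Sin3B peak was 375 bp wide in myoblasts and 978 bp in myotubes, and the Sin3A peak of 486 bp had its centre upstream, at -177.5 bp. The site at Abhd10 (chromosome 16, 45742284 to 45743100) also had a wider Sin3B peak in myotubes, of 817 bp against 389 bp, with the Sin3A centre at 244.5 bp and the Sin3B myotube centre at 263 bp. Polq (chromosome 16, 37011639 to 37012290) had a Sin3A peak of 591 bp between Sin3B peaks of 393 bp (myoblasts) and 645 bp (myotubes) in width. Naxd (chromosome 8, 11497286 to 11497867) had the narrowest Sin3A peak of the 10, of 290 bp, and there the Sin3B peak was narrower in myotubes (305 bp) than in myoblasts (459 bp).

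Over the 10 sites the nearest start lay inside the Sin3B myotube peak at 10, inside the Sin3B myoblast peak at 9 and inside the Sin3A peak at 7. Some of these calls rest on a few bases, with the positions taken as equal. An edge of the Sin3A peak lay at -8.5 bp at Abhd10, 6.5 bp at Banf1 and 9.5 bp at Naxd. The median position of the centre was 140.5 bp for Sin3A (-177.5 to 343 bp), 31.5 bp for Sin3B in myoblasts (-537.5 to 167.5 bp) and 33.75 bp for Sin3B in myotubes (-501 to 350.5 bp). These ranges overlap, and no test was made. Both far upstream Sin3B centres belonged to Banf1, where a start of Eif1ad and a further start of Banf1 lay under the Sin3B peaks.

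**Figure D1:**
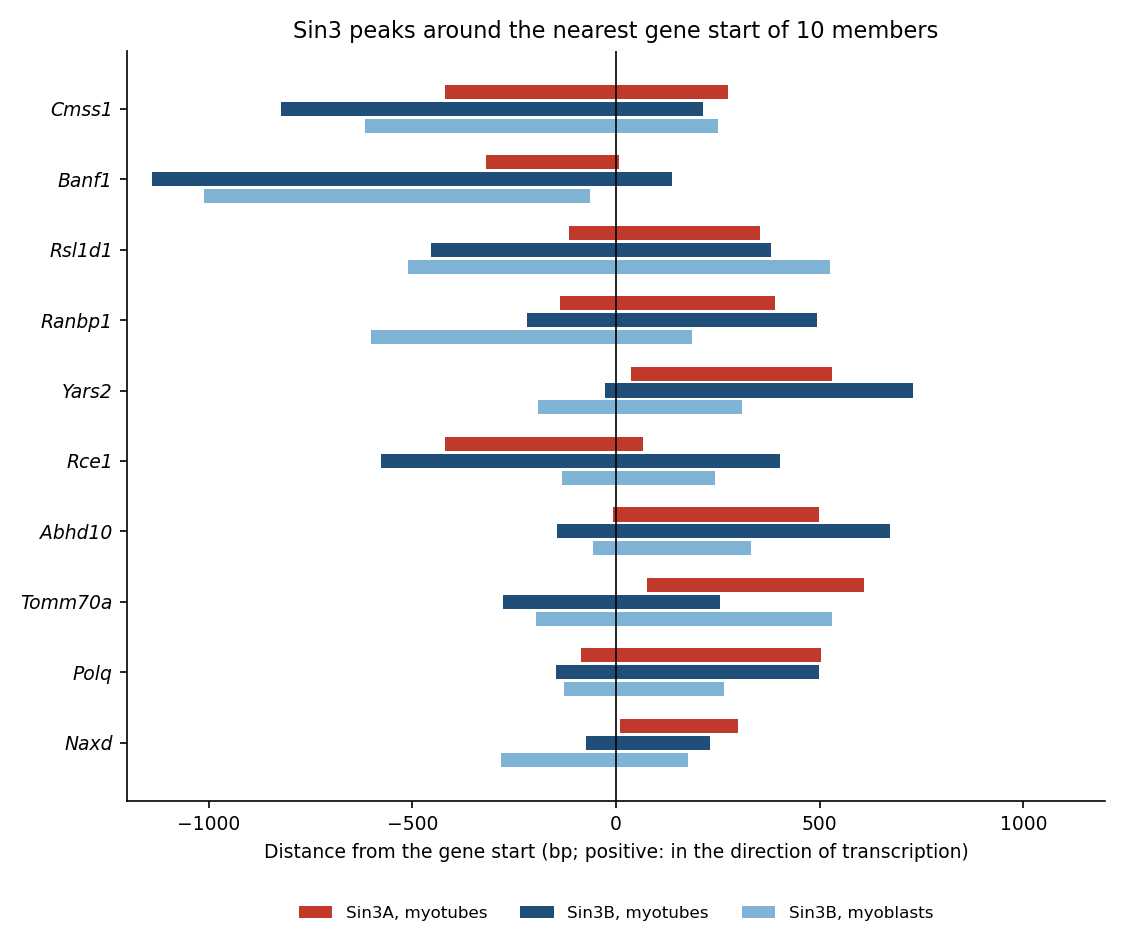
Extent of the Sin3A myotube (red), Sin3B myotube (dark blue) and Sin3B myoblast (light blue) peaks of 10 joined sites, as distance in bp from the gene start nearest to the Sin3A centre, with transcription to the right; 1 peak of each list per gene. The start (vertical line) lies inside all 3 peaks at 6 genes, and the Sin3A peak lies wholly downstream of it at Yars2, Tomm70a and Naxd. Positions of the lists and of GRCm38.p6 are taken as equal.

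At 6 of the 10 sites the start lay inside all 3 peaks, with the positions of the lists and of GRCm38.p6 taken as equal. The promoter windows of those genes are printed for that reason. At Abhd10 the Sin3A edge lay at -8.5 bp from the start, so a small shift could change the call. The peaks need not cover a whole window. Each window is RefSeq sequence of GRCm38.p6 that runs from 250 bases before the start to 50 after it, in the direction of transcription. The windows are Cmss1 at chr16:57606818-57607117, Rsl1d1 at chr16:11203243-11203542, Ranbp1 at chr16:18248645-18248944, Rce1 at chr19:4625596-4625895, Abhd10 at chr16:45742906-45743205 (all on the minus strand) and Polq at chr16:37011536-37011835 (plus strand). Capitals mark the core CCGGAA of ETS factors and the core GCGCAT of NRF1, on either strand.
Cmss1: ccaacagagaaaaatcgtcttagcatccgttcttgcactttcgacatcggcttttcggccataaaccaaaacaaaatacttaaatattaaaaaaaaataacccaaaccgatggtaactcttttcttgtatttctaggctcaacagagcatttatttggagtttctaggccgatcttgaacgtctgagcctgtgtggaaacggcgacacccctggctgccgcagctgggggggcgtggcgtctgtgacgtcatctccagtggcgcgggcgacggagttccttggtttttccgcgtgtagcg
Rsl1d1: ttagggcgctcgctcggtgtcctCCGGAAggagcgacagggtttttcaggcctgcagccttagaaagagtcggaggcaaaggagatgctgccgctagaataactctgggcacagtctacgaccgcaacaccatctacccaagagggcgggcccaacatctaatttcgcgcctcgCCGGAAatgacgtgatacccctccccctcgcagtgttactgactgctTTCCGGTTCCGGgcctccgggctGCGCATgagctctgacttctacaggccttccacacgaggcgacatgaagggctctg
Ranbp1: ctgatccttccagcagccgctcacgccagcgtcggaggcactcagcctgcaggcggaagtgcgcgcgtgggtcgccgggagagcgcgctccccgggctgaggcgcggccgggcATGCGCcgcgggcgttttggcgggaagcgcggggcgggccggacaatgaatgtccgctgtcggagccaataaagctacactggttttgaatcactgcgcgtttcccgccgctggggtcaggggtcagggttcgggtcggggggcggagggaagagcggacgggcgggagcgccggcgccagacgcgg
Rce1: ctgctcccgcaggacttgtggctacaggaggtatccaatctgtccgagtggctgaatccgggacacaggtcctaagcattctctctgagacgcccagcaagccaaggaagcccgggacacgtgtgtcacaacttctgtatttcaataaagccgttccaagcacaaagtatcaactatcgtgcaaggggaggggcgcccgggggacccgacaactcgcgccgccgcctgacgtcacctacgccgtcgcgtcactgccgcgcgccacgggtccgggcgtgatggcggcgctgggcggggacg
Abhd10: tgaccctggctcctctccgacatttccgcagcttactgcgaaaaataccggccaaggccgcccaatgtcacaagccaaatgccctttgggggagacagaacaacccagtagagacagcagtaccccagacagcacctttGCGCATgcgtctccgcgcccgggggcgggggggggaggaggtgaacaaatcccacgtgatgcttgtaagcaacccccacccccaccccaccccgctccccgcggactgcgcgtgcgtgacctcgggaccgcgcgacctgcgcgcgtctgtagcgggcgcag
Polq: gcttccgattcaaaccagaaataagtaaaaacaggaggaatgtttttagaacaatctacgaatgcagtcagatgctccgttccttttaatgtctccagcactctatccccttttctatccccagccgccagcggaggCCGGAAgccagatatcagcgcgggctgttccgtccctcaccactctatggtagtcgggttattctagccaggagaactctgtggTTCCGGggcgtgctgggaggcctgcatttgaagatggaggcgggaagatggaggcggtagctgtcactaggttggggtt

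The Sin3A peak covered 300 bases of the Cmss1 window and 300 of the Rce1 window, 188 of Ranbp1, 166 of Rsl1d1, 136 of Polq and 58 of Abhd10. Marked cores can thus lie outside it, as did the first CCGGAA of Rsl1d1 and of Polq. The marked GCGCAT of Abhd10 lay outside both the Sin3A peak and the Sin3B myoblast peak. All these placements take the positions of the lists and of GRCm38.p6 as equal to the base, which was not tested. The windows of all 10 genes were rich in G and C, with a median of 64.2% (48.7 to 77.0%) and 25.5 CpG dinucleotides (14 to 42). The 119 windows at the other regions of the stretches had medians of 62.0% and 22, and the 32851 windows of all genes had 52.7% and 7. The medians of the joined sites were thus nearer to those of other Sin3 regions of the stretches than to those of promoters at large, with no test made.

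Of 8 short motifs searched on both strands, the Sp1 core CCGCCC was in 7 of the 10 windows and the general E-box CANNTG in 6. The E2F core TCGCGC, the ETS core and the NRF1 core were in 4 each. Each core was searched in a single form, so other forms of a factor's site were not counted. The shares among the 119 windows at other regions were 60.5% for CCGCCC, 52.9% for CANNTG, 21.0% for TCGCGC, 45.4% for CCGGAA and 13.4% for GCGCAT. Among all windows they were 35.7%, 72.3%, 9.10%, 14.9% and 6.86% in the same order. TCGCGC and GCGCAT can share letters. The E-box form CAGCTG, which is contained in CANNTG, was in 2 windows, against 13.4% at the other regions and 16.3% of all windows. The MEF2 core TAAATA was in 1, against 6.72% and 13.7%. The string AAATGG, searched as a core for YY1, was in 0 windows, against 16.8% at the other regions and 15.3% of all windows. This count does not show that other forms of a YY1 site were absent. With 10 windows, none of these shares was tested, and a match does not show that the factor was bound there.

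Of 6 gene lists (sarcomere, myogenic regulators, cell cycle, Sin3 complex, ribosomal proteins and respiratory chain, 224 genes in all), 170 were found in the gene table, and of these 5 lay in the stretches, namely Ing1, Rpl24, Rpl35a, Atp5j and Ndufb4. Ing1, a subunit of the Sin3 complex, Rpl35a and Atp5j had a Sin3 region within 1 kb of a start, and 0 of the 5 had a joined site. The lists could not be examined over the rest of the genome.

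Most joined sites held 1 peak of each list. Of the 220, 207 held exactly 1 peak of each of the 3 lists, 3 held more than 1 Sin3A peak, 7 more than 1 Sin3B myoblast peak and 6 more than 1 Sin3B myotube peak. The merged regions had a median width of 911.5 bp (374 to 2889 bp), against 746 bp for Sin3B at both stages without Sin3A, 691 bp for both proteins in myotubes only and 918.5 bp for all 4 lists. The widest peaks of the 3 lists shared at least 1 bp at 204 of them, with a median common core of 346 bp (18 to 719 bp).

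Sin3A peaks had the smallest median width of the 3. That median was 498 bp (240 to 990 bp), against 576.5 bp (169 to 1951 bp) for Sin3B in myoblasts and 753 bp (136 to 1932 bp) for Sin3B in myotubes. The Sin3A peak was narrower than the Sin3B myotube peak at 187 sites (85.0%) and lay wholly inside it at 130 (59.1%, 52.3 to 65.7%). It lay wholly inside the Sin3B myoblast peak at 61 (27.7%, 21.9 to 34.1%).

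The Sin3B myotube peaks of the joined sites were placed highest within their list. The median site was wider than 79.0% of the Sin3B myotube list, 64.7% of the Sin3B myoblast list and 56.7% of the Sin3A myotube list. The 1000 regions with Sin3B at both stages and no Sin3A had medians of 546 bp in myoblasts and 583 bp in myotubes, and the 273 regions with both proteins in myotubes only had 458 bp for Sin3A and 599 bp for Sin3B. The 84 regions of all 4 lists had a median Sin3A myotube width of 551 bp, and median Sin3B widths of 530.5 bp (myoblasts) and 732 bp (myotubes). A wide peak has more room to overlap a peak of another list, so these widths are not independent of how the sites were chosen.

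**Figure D2:**
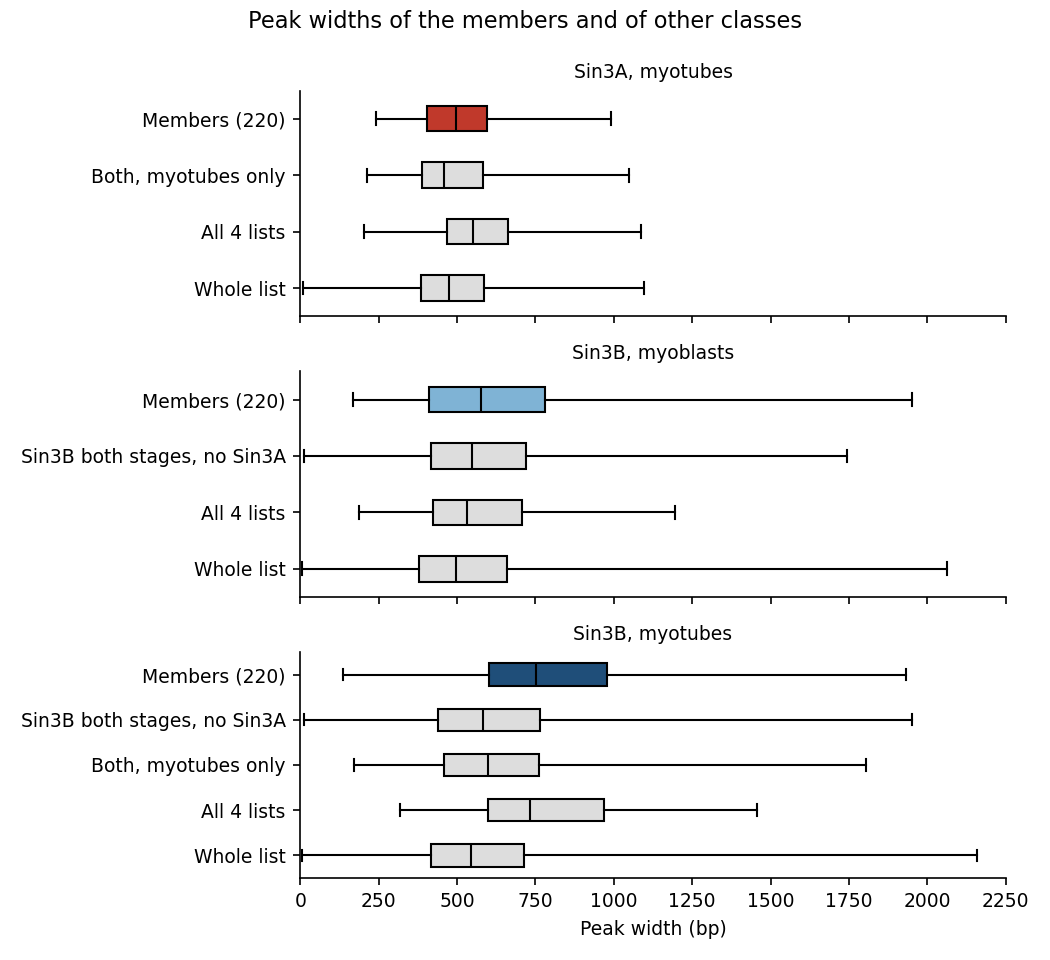
Peak width in bp by list for the 220 joined sites (members, coloured), for 3 other classes of region and for the whole list (grey). The classes use the widest peak of a list per region, and the whole list uses every peak. Boxes run from the first to the third quartile with the median as a line, and whiskers to the lowest and highest value. The joined sites have a median of 753 bp for Sin3B in myotubes, against 583 bp where Sin3A is missing and 545 bp in the whole list.

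The Sin3B peak was wider in myotubes than in myoblasts at 151 of the 220 joined sites (68.6%, 62.1 to 74.7%) and narrower at 69. The median ratio of myotube to myoblast width was 1.27 (quartiles 0.944 and 1.84), and the median difference 150.5 bp. At regions with Sin3B at both stages and no Sin3A, it was wider in myotubes at 555 of 1000 (55.5%, 52.4 to 58.6%), with a median ratio of 1.06. Over 2-fold widening was found at 46 joined sites (20.9%) and at 91 of the 1000 (9.10%). Among regions of all 4 lists, 64 of 84 were wider in myotubes (76.2%, 65.7 to 84.8%) and a median ratio of 1.41.

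Sorted by the width of the Sin3B myotube peak, the 1220 regions with Sin3B at both stages and no myoblast Sin3A held Sin3A in myotubes more often toward the wide end. The share was 5.57% (3.28 to 8.77%) in the narrowest 305 regions of up to 462 bp, 15.4% and 20.0% in the next groups of 305, and 31.1% (26.0 to 36.7%) in the widest 305 from 813 bp. Sorted by the width of the Sin3B peak before differentiation, the shares were 19.0%, 13.4%, 17.7% and 22.0% from narrow to wide, with overlapping intervals in neighbouring groups. The shares thus spanned a smaller range by myoblast width than by myotube width, and neither pattern was tested, since overlap chose the sites.

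**Figure D3:**
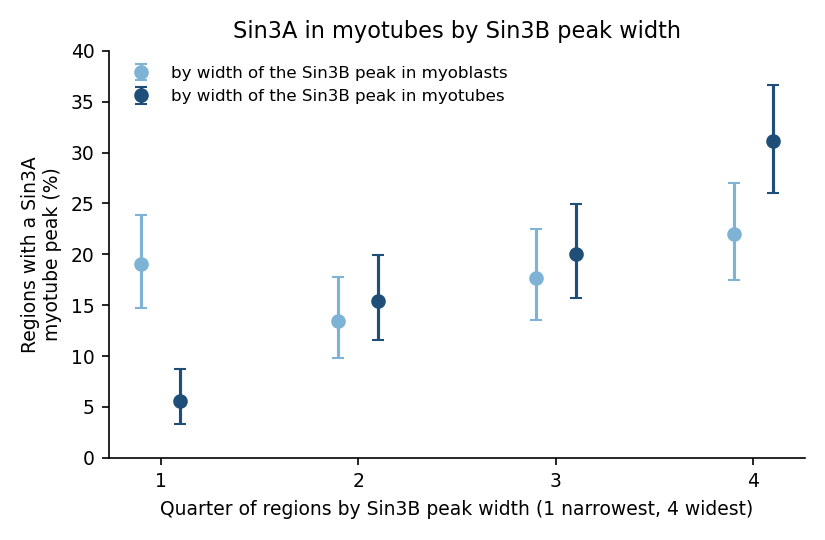
Share of regions (%) with a Sin3A myotube peak among 1220 regions with Sin3B at both stages and no Sin3A in myoblasts, in groups of 305 regions by width of the Sin3B peak in myoblasts (light blue) or myotubes (dark blue); bars are 95% exact binomial intervals. The share goes from 5.57% to 31.1% with myotube width and stays between 13.4% and 22.0% with myoblast width.

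The positions of the peaks within the sites are given as a description, since the overlap that chose the sites also bounds the distances between centres. The Sin3A centre lay a median of 93.75 bp from the Sin3B myotube centre (1.5 to 950 bp) and 130.5 bp from the Sin3B myoblast centre (1 to 1113 bp). It was within 100 bp of the myotube centre at 117 sites (53.2%) and of the myoblast centre at 88 (40%). It was nearer to the Sin3B centre of its own stage at 133 sites and to the myoblast centre at 85, with 2 ties (61.0% of 218). The counts were 70 and 53 (56.9%) at sites whose Sin3B widths of both stages were within 1.5-fold of each other. They were 79 and 57 (58.1%) with the narrowest 25% of each list left out. The median difference per site was 21.75 bp. At regions of all 4 lists the counts were 57 and 27.

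**Figure D4:**
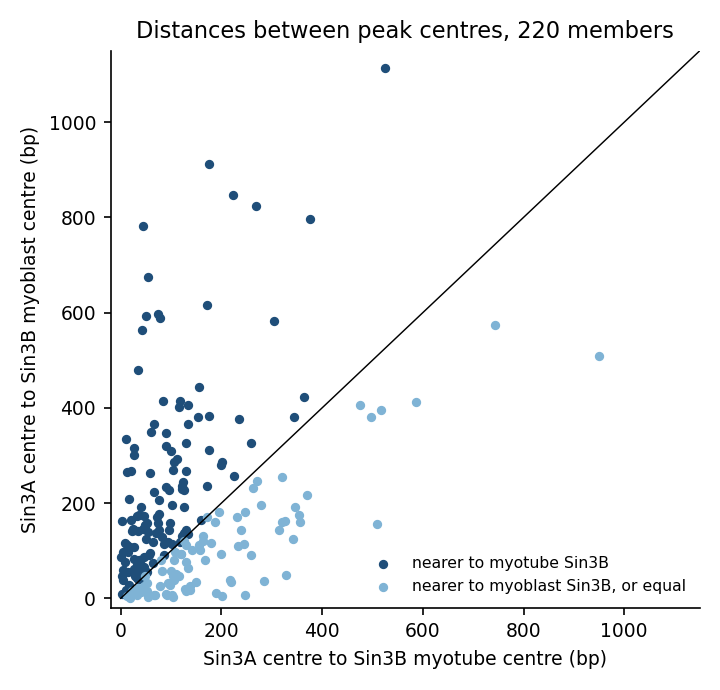
Distance in bp from the Sin3A myotube centre to the Sin3B myotube centre (x axis) and to the Sin3B myoblast centre (y axis) for each of the 220 joined sites, 1 point per site, with the line of equal distance. Points above the line (133) are nearer to Sin3B of myotubes, and most points lie within 200 bp on the x axis.

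Ranked by the mean of their width ranks within the 3 lists, the first site was on chromosome 2 at 172195473 to 172196955. Its Sin3A peak of 682 bp lay within a Sin3B myoblast peak of 1162 bp, which lay within a Sin3B myotube peak of 1483 bp. The next, on chromosome 5 at 31481067 to 31483017, had 565 bp for Sin3A and 1951 and 1819 bp for Sin3B in myoblasts and myotubes. The fourth, on chromosome 3 at 58218681 to 58221569, was the widest merged region, of 2889 bp, and held 3 Sin3B myoblast peaks, 2 Sin3B myotube peaks and 1 Sin3A peak of 850 bp. On chromosome 15, at 25913883 to 25915181, Sin3A was wider (975 bp) than Sin3B in myoblasts (818 bp) and narrower than Sin3B in myotubes (1207 bp). The sixth, on chromosome 8 at 87185203 to 87186821, and the second were among those with a Sin3B peak narrower in myotubes, of 1261 bp against 1608 bp in myoblasts at the sixth, with Sin3A at 514 bp. At the seventh, on chromosome 5 at 31828687 to 31829989, Sin3A (511 bp) lay inside Sin3B peaks of 1217 and 1303 bp.

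The next in rank were 2 sites of chromosome 14 and 1 of chromosome 4. The site at 76510158 to 76511326 on chromosome 14 had 590 bp for Sin3A and 1128 and 1061 bp for Sin3B in myoblasts and myotubes, and the site at 138907682 to 138908989 on chromosome 4 had 539, 1067 and 1154 bp. The site at 21748593 to 21750023 on chromosome 14 held 2 Sin3B myoblast peaks, the wider of 840 bp, beside a Sin3B myotube peak of 1221 bp and a Sin3A peak of 574 bp. Among all these sites the Sin3A peak was narrower than the Sin3B myotube peak. The last in rank was on chromosome 13 at 23626934 to 23627307, where peaks of 365, 264 and 299 bp (Sin3A, Sin3B in myoblasts, Sin3B in myotubes) formed a region of 374 bp. On chromosome 3, at 116365019 to 116365589, the Sin3A peak of 571 bp was wider than both Sin3B peaks, of 317 bp in myoblasts and 136 bp in myotubes. At the remaining low-ranked site, on chromosome 15 at 72520166 to 72520714, Sin3A was 361 bp wide and Sin3B 250 bp in myoblasts and 423 bp in myotubes.

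Spacing within sites ranged widely. Sin3A and Sin3B myotube centres were 1.5 bp apart on chromosome 13 at 51746470 to 51747440, and 2.5 bp apart at a site of chromosome 12 (40948504 to 40949846) and one of chromosome 1 (192886443 to 192887417). At the site of chromosome 12 the Sin3B peak was 259 bp wide in myoblasts and 1343 bp in myotubes. Centres were 950 bp apart on chromosome 9 at 64020172 to 64021792, where 2 peaks of each were listed and the widest ones lay at opposite ends. On chromosome 17, at 36115857 to 36117174, the Sin3A peak reached only the Sin3B myoblast peak, by 51 bp, and lay 167 bp from the Sin3B myotube peak, with centres 742.5 bp apart. When the larger of the Sin3A overlaps with Sin3B of the 2 stages was taken per site, these 51 bp were the least among the joined sites. The next was 216 bp. The overlap with Sin3B of a single stage could be smaller, and Sin3A overlapped a Sin3B myoblast peak directly at 212 of the 220. The third widest spacing, of 585.5 bp, was also on chromosome 17, at 34092182 to 34093308. There 2 Sin3B myotube peaks were listed, and the spacing is to the wider one. Sin3A overlapped the other by 403 bp. Just outside the rule, the nearest Sin3A myotube peak lay 158 bp away from 2 regions with Sin3B at both stages, and within 1 kb of 9 of the 1000. Such a region can be the close neighbour of a joined site. The one on chromosome 15, at 80086452 to 80087197, lay 121 bp from the joined site at 80085743 to 80086330. The closest Sin3A myoblast peak to any joined site was 1327 bp away, on chromosome 17 at 71198765 to 71200502, and the next were at 1521 and 8286 bp.

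Few joined sites had a close neighbour. Another Sin3 region of any kind lay within 5 kb of 23 of the 220 (10.5%, 6.74 to 15.3%), below the 19.8% of all 5137 regions. The share was 14.9% (12.7 to 17.3%) for Sin3B at both stages without Sin3A, 14.7% (10.7 to 19.4%) for both proteins in myotubes only and 8.33% (3.42 to 16.4%) for all 4 lists. None of the 3 differences passed the test (two-sided Fisher's exact test, adjusted p of 0.264, 0.266 and 0.671).

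Joined sites were spread over 19 chromosomes, with 23 on chromosome 15, 20 on chromosome 2, 19 on chromosome 10, 18 on chromosome 11, 16 on chromosome 13 and 0 on chromosome X. Chromosome 15 held 10.5% of them (6.74 to 15.3%), against 5.40% (4.08 to 6.99%) of regions with Sin3B at both stages and no Sin3A (two-sided Fisher's exact test, p = 0.00860, adjusted p = 0.516 over 60 tests). Chromosome 13 held 7.27% against 3.90% (Fisher's exact test, p = 0.0459, adjusted p = 0.689). Against regions with both proteins in myotubes only, the same chromosomes had 5.49% (adjusted p = 0.689) and 2.56% (adjusted p = 0.520, both Fisher's exact test). Among regions of all 4 lists they held 10.7% and 2.38% (Fisher's exact test, adjusted p = 1 for each). Over the 20 chromosomes and 3 classes 4 tests had an unadjusted p below 0.05, and 0% passed after adjustment in each class.

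**Figure D5:**
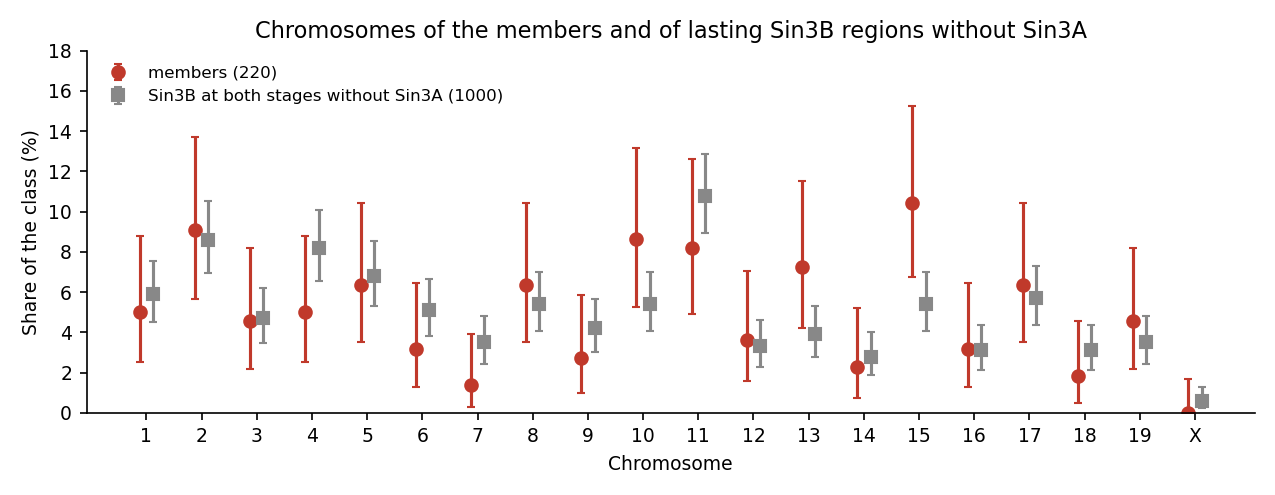
Share (%) on each chromosome of the 220 joined sites (red circles, members) and of the 1000 regions with Sin3B at both stages and no Sin3A (grey squares), with 95% exact binomial intervals. Chromosome 15 has 10.5% against 5.40%, and no chromosome passed the test after adjustment.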

How the data were processed

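Sin3A and Sin3B peaks were analysed as the authors deposited them, as bare intervals with no header or score, for 11 of 14 samples; the 3 input samples were not analysed here. Per the labels' protocols, libraries had 18 cycles of PCR and were selected at about 350 bp. Aligner, peak caller, threshold and build were not given in the sources used here. Identical files of a group were counted once, and 1 was added to starts.

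The members and the gene lists were chosen with earlier results of these data known. A centre is the middle of an interval, and the widest peak of a list stands for a region with several. Sites are named if among the 10 with the highest or the 3 with the lowest mean width rank, the 3 with the widest or closest spacing, or at a gene. Sites on chromosome 18 are not printed.

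The RefSeq table (GRCm38.p6) was used where, of the 5 non-member regions on each side, at least 6 in all and 2 per side lay within 1 kb of a gene start, at least 50% of these with the start inside. The last condition was added after seeing the data, since starts on chromosome 13 looked displaced. The same regions enter the comparison with the members, which raises their share at starts. Motifs and base content were read from RefSeq promoter windows.

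Fisher's exact test was adjusted by Benjamini-Hochberg at 0.05 over 3 classes or 60 chromosome tests. A planned sign test on centres is not reported, because the overlap that chose the sites bounds these distances. Scripts were tested on simulated lists and used Python 3.11.15 with matplotlib 3.10.9, scipy 1.17.1, pandas 2.3.3 and numpy 2.4.6.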

Additional observations from a re-analysis of the deposited data

How the results depend on the processing

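The number of joined sites was 212 with an overlap of 50% of the shorter peak, 237 with merging within 1 kb, and 220 without peaks under 50 bp or without chromosome X. It was 137 with the narrowest 25% of each list left out and 48 with the widest 691 peaks of each list, since fewer peaks enter. Their share of regions with Sin3B at both stages was 22.6% with the widest peaks and 14.0 to 16.2% with a 50% overlap, merging within 1 kb, the narrowest 25% left out or peaks under 50 bp left out; it was not computed without chromosome X. The share of sites whose Sin3A centre lay nearer to Sin3B of myotubes was 60.0 to 62.4% with a 50% overlap, merging within 1 kb or single-peak sites. It was 58.1% with the narrowest 25% left out and 56.9% with Sin3B widths within 1.5-fold, an alternative chosen after seeing the data; both keep fewer sites. For spacing against regions of all 4 lists the difference was 2.12 percentage points and turned to -2.13 with a 50% overlap (Fisher's exact test, adjusted p = 0.689). Against Sin3B at both stages without Sin3A it went from -4.45 to -5.84 points with that overlap. Against both proteins in myotubes only it went from -4.20 to -7.68 points. The adjusted p fell from 0.264 and 0.266 to 0.0609 for each (Fisher's exact test). Differences in spacing, chromosomes and gene starts passed the test under none of the settings run. No paired analysis was possible because the files of a group were identical and gave 1 list. For the same reason no replicate could be left out, and motif tests in regions were not run without a genome of the lists' build.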

Other observations

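Pairs of joined sites within 100 kb of each other were few, and 3 of the 6 lay on chromosome 15. The closest pair there, at 80085743 to 80086330 and 80094009 to 80094982, was 7678 bp apart. The others on that chromosome were at 81494153 to 81494822 and 81559835 to 81560997, 65012 bp apart, and at 98364225 to 98364829 and 98397263 to 98398735, 32433 bp apart. The remaining pairs lay on chromosomes 3, 17 and 19, with gaps of 66528, 98570 and 21230 bp. No test was made of this spacing.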
